A study of Mus musculus with 2 samples.

Results

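The type II basic hair keratins Krt81, Krt82, Krt83, Krt84, Krt85 and Krt86 were examined in the skin of Pla2g2f-transgenic mice. The 6 genes were chosen by name, by matching the array's gene names, their RefSeq accessions and older aliases. Of these genes, 5 had a probe on the array and 4 were measured, out of 10454 genes measured in all. A gene counts as measured where at least 1 channel of array 1 was well above background. Krt81 had no probe under its name or accession, and Krt84 was not well above background in either channel. The compared groups were Pla2g2f-Tg/+ mice, which carry a transgene for the secreted phospholipase Pla2g2f, and littermate controls without it. Both had a C57BL/6 background and were 25 days old, and skin RNA of 4 mice was pooled for each genotype. The promoter that drives the transgene is not named in the labels. Each of 2 two-colour arrays carried RNA of both genotypes, with transgenic RNA in Cy5 on array 1 and in Cy3 on array 2. The arrays are titled as replicates, but the labels do not mention separate pools for them. They were therefore counted as 1 replicate, so no p-value across mice is given. The difference between the arrays was read as technical.

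Keratins are the filament proteins of epithelial cells, and each filament pairs a type II basic with a type I acidic chain. Hair keratins are the cysteine-rich keratins of the growing hair shaft. Matrix cells at the base of the follicle divide and then move up into the cortex, which is the body of the shaft, and into the cuticle, which is its scaly cover. Krt85 starts earliest, in the matrix and the precortex. Krt81, Krt83 and Krt86 follow in the cortex, and Krt82 is a keratin of the cuticle. Krt84 is known mainly from the filiform papillae of the tongue.

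The probe sequences bear on which gene a value belongs to, and the pair below is shown because these probes share letters. The probe that the array names Krt83 carries the accession NM_001003668, for which the RefSeq table of assembly GRCm38.p6 gives the current symbol Krt87. It is called the Krt83 probe here, and its values may describe Krt87. The current Krt83 of that table has no probe under its name or accession. Without the Krt83 probe, 4 of the genes had a probe, and 3 were measured and lower. The Krt86 probe is listed on the array under the older name 5430421N21Rik with the accession NM_010667, which the table names Krt86. That older name is also listed there as an alias of the current Krt83. The sequences are those of the array file, 5′ to 3′, with the letters they have in common in capitals.
Krt83 probe, mm8 chr15:101261643-101261702, minus strand: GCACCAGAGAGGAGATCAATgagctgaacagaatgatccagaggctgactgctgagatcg
Krt86 probe, mm8 chr15:101304894-101304953, plus strand: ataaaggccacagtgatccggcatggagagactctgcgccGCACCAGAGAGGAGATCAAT
The first 20 of 60 bases of the Krt83 probe were the last 20 bases of the Krt86 probe, although the array design places the probes 43251 bases apart. Each probe had at least 1 reading frame without a stop codon. No other keratin probe (0) on the array shared 15 or more bases in a row with a probe of these genes. A probe for H2aw, which is not a keratin, shared at least 15 with the Krt83 probe. Cortex keratins of this cluster are close copies of one another, so the values of these probes cannot be assigned with certainty to single genes. The values should not be read as independent of each other, although binding of either probe to the other gene's RNA was not tested.

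All 4 measured genes were at least 2-fold lower in the transgenic pool on each array. Across all genes measured, 1.68% were lower by that rule (176 of 10454) and 3.72% were higher (389). Krt82 and Krt86 entered only through the brighter control channel of array 1, so a lower value was built into their selection. Of the genes well above background in both channels, 0.936% were lower (86 of 9188), and Krt83 and Krt85 were among these. The median of the mean log2 ratios (transgenic over control) of the 4 genes was -3.17, beside -0.0079 for all genes measured. Skin RNA cannot tell fewer cells of a type from less RNA per cell.

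Krt85, the earliest of these keratins, had the smallest difference in the ratios as deposited. Its probe (NM_016879; mm8 chr15:101344599-101344658) gave a processed signal of 8210 in the control and 1714 in the transgenic channel of array 1. The RefSeq table gave no match for this probe, so it goes by the array's own name. Array 1 gave a log2 ratio of -2.26 and array 2 one of -2.02, a mean of -2.14, or 4.4-fold lower. Both channels lay clearly above background, so the ratio was measured on both sides. The program's own error of the log2 ratio on array 1 was 0.29 for this spot, the smallest of the 4 measured probes. It was 0.40 for Krt83, 0.44 for Krt86 and 0.39 for Krt82.

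The Krt83 probe, for a keratin of the cortex, had the lowest mean of the arrays and the smallest gap between them of the 4 measured probes, although Krt86 was lower on array 1. Its signal was 4863 in the control and 383 in the transgenic channel of array 1. The log2 ratios were -3.67 and -3.69, a mean of -3.68, or 12.8-fold lower. Among all genes measured it ranked 18th from the lowest mean log2 ratio.

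The Krt86 probe, also for a cortex keratin, had a signal of 3127 in the control and 182 in the transgenic channel of array 1. The transgenic signal was not well above background. Array 1 gave a log2 ratio of -4.11 and array 2 one of -3.02, a mean of -3.57, and this gap of 1.08 between the arrays was the widest of the 4 measured probes. On array 1 the gene was at least 16.5-fold lower, if the transgenic pool is set to 190, the lowest Cy5 signal well above background. Array 2 gave 8.14-fold, so the size on array 1 was not matched on array 2.

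Krt82, the keratin of the cuticle, was the dimmest of the 4 measured probes in the transgenic channel. Its probe (NM_053249; mm8 chr15:101369432-101369491) gave 707 in the control channel and 107 in the transgenic channel, the latter not well above background. The log2 ratios were -2.73 and -2.83, a mean of -2.78. Set against the lowest signal well above background, Krt82 was at least 3.72-fold lower on array 1. With another background correction of array 1 (normexp with an offset of 50, then loess) the log2 ratio of Krt82 on that array was -0.76 and the gene no longer passed the rule, while Krt83, Krt86 and Krt85 lay at -2.09, -1.80 and -1.77.

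Krt84 (NM_008474; mm8 chr15:101353302-101353361) had signals of 94.4 in the control and 109 in the transgenic channel. Neither was well above background. The log2 ratios of 0.21 and 0.18 therefore give no level in either pool, and a difference in Krt84 was not detectable at this signal.

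**Figure D1:**
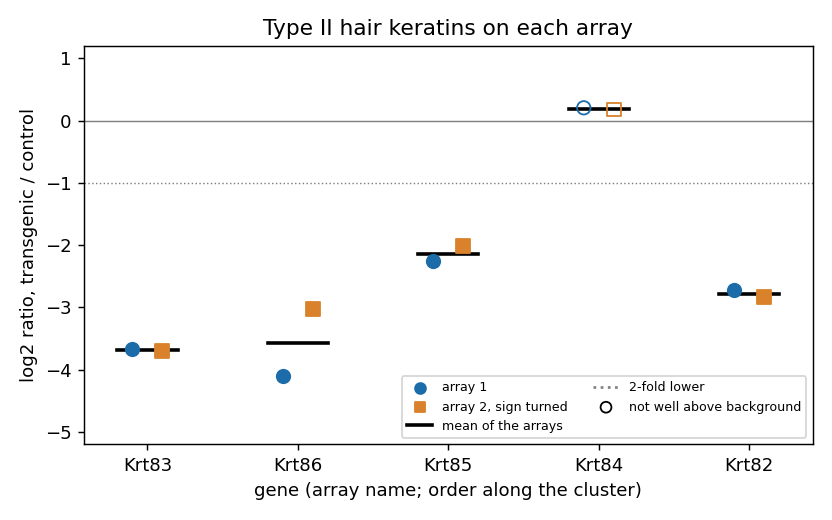
Log2 ratios of transgenic over control for the 5 genes with a probe, in order along the cluster, with circles for array 1, squares for array 2 after turning its sign and bars for the mean of the arrays. Krt83, Krt86, Krt85 and Krt82 lie below the dotted 2-fold line on both arrays, and Krt84, drawn open because it was not well above background, lies near 0.

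**Figure D2:**
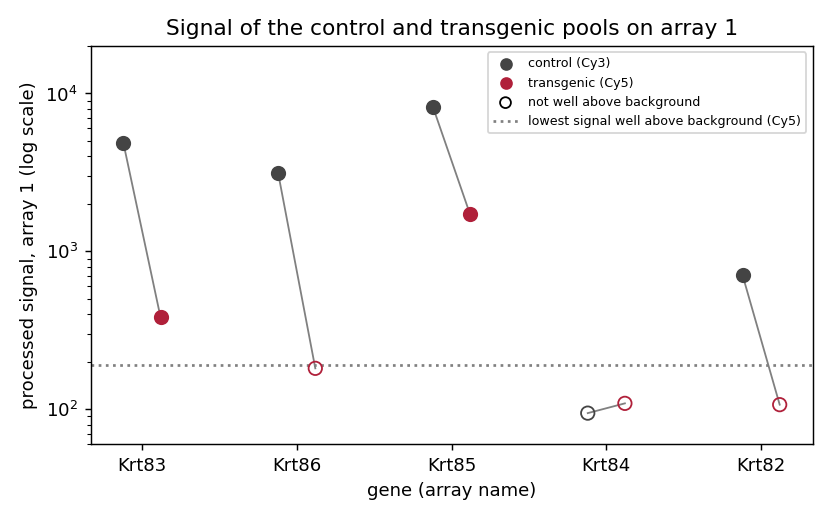
Processed signal of the same probes on array 1, on a log axis, in the control channel (Cy3) and the transgenic channel (Cy5), with open symbols for signals not well above background and a dotted line at the lowest Cy5 signal well above background, 190. The transgenic signals of Krt86 and Krt82 fall below that line, and both signals of Krt84 do.

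The sizes of the differences were set against one another, since the members mark different zones of the shaft. Krt85 exceeded Krt83 by 1.41 log2 units on array 1 and 1.68 on array 2. That is more than the gaps between the arrays for these genes, 0.24 and 0.03. The program's own errors for these spots on array 1 were larger than those gaps, 0.29 and 0.40. With normexp the excess on array 1 was 0.32. Means with normexp keep array 2 as deposited, and were -1.89 for Krt85 and -2.89 for Krt83. On array 1 with normexp, Krt86 lay at -1.80, close to Krt85 at -1.77. Krt86 lay 0.44 below Krt83 on array 1 (a difference of -0.44) and 0.67 above it on array 2, so these cortex keratins have no settled order. The cuticle keratin Krt82 lay between them and Krt85, above Krt83 by 0.94 and 0.86 and below Krt85 with differences of -0.47 and -0.81. With normexp its mean was -1.79 against -1.89 for Krt85, so the order of Krt82 and Krt85 turned. These are single probes, and a dim transgenic channel limits how large a ratio can be read.

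Type I partners of the same zones were placed beside them. All 7 measured type I hair keratins of 9 listed were lower on each array, with a median of -3.64. In the matrix zone, Krt35, the early partner of Krt85, had log2 ratios of -2.42 and -2.27, and its mean of -2.35 lay 0.21 from that of Krt85. In the cuticle zone, Krt32 gave -2.86 and -2.53, a mean of -2.70 beside -2.78 for Krt82. Krt39 and Krt40, other listed keratins of the cuticle, had no probe under these names.

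In the cortex zone more type I than type II keratins were measured, and the type II probes share bases, so their spreads were not compared. Krt33b and Krt33a had means of -4.87 and -4.87, and the second probe of Krt33b gave -1.68. Krt34 had a mean of -4.53 with a gap of 1.13 between the arrays, and Krt31 one of -3.64. The transgenic channel of array 1 was dim for both. Krt36, dim there too, had a mean of -2.38, which overlaps the matrix keratins.

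Over both types, the medians of the mean log2 ratio were -2.24 for 2 matrix keratins, -2.74 for 2 cuticle keratins and -3.68 for 7 cortex keratins. The cortex median is the value of the Krt83 probe, which may describe Krt87. It was -4.08 without that probe and -4.87 with both channels above background. Of the cortex keratins, 4 of 7 were bright in the control channel of array 1 but not in the transgenic one, against 1 of 2 of the cuticle and 0 of 2 of the matrix. In the 6 alternatives that moved the zones by unequal amounts, the cortex median was the lowest in 6. The cuticle median lay below the matrix median in 5 of them. The exception was normexp on array 1, averaged with array 2 as deposited, with -1.83 for the cuticle, -2.09 for the matrix and -2.89 for the cortex. Averaging a gene's probes, or leaving out the Krt83 probe, could not alter the order of cuticle and matrix, since both medians stayed unchanged. With both channels above background the matrix median was unchanged too, and Krt32 alone gave the cuticle's -2.70. Array 1 alone and array 2 alone are the parts of the main mean. The zones hold few genes each and were compared as a description, without a test. The literature's zones were not checked in these mice.

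**Figure D3:**
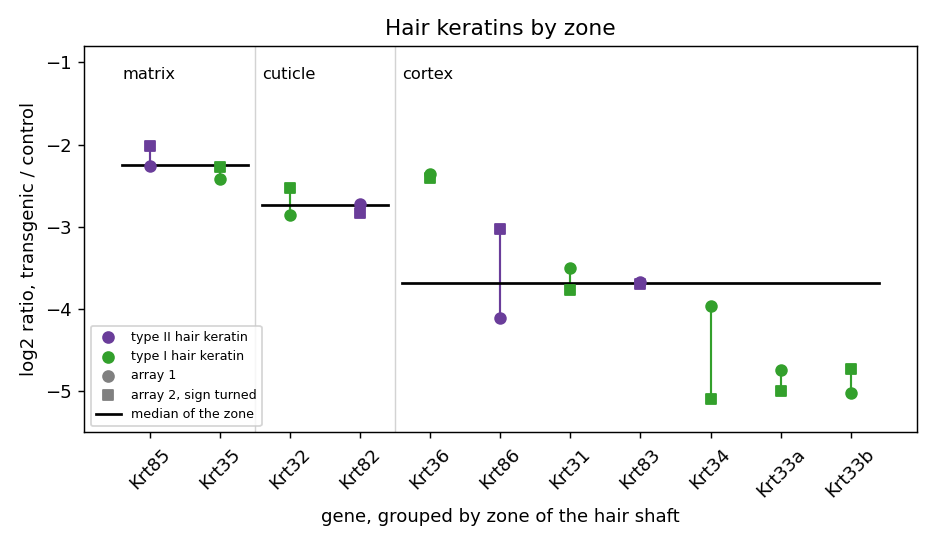
Log2 ratios of the 11 measured hair keratins, grouped by the zone of the hair shaft in which each is known to start, with circles for array 1, squares for array 2 after turning its sign, purple for type II, green for type I and black lines for the zone medians of -2.24, -2.74 and -3.68. Each gene is drawn by its brightest probe. Cortex keratins reach the lowest values, except Krt36, which lies with the matrix keratins. The second probe of Krt33b, with a mean of -1.68, is not drawn and lies above the matrix keratins.

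The members with a probe lie in one stretch of the type II keratin cluster of mouse chromosome 15, which also holds Krt88, whose probe was not well above background, and the probes from Krt83 to Krt82 span 107849 bases on mm8. Keratins on either side of this stretch differed in direction. Of 11 other measured type II keratins of 18 listed, 4 were lower, 2 were higher and 5 passed in neither direction. Their median was -0.07. On one side Krt7, a keratin of simple epithelia, had a mean log2 ratio of -1.34, with a dim transgenic channel and a bound of 1.37-fold lower on array 1. On the other side, beyond Krt90, which was not well above background, Krt75, a keratin of the companion layer of the follicle, had -1.78. Krt71, a keratin of the inner root sheath, lay at -2.20, beyond Krt6b, Krt6a and Krt5, which did not pass, and was close to Krt85. Krt1, a keratin of the suprabasal epidermis, was higher at 2.26, and Krt79, a keratin of the upper follicle, at 1.74. Krt8, of simple epithelia, lay at -1.61, also with a dim transgenic channel and a bound of 1.72-fold lower.

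**Figure D4:**
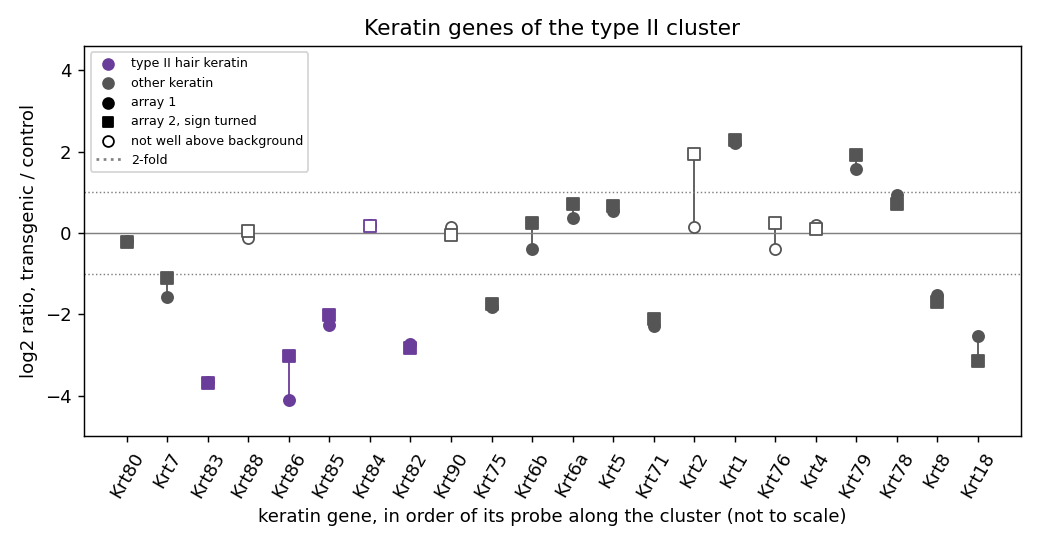
Log2 ratios of 22 keratin genes of the type II cluster that have a probe, in order along the chromosome and not to scale, with circles for array 1, squares for array 2 after turning its sign, purple for hair keratins and open symbols for probes not well above background. The 4 measured hair keratins lie between -2.14 and -3.68 in the mean, and other keratins reach from -2.83 (Krt18, the type I gene at the end of the cluster) to 2.26 (Krt1).

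Promoter sequence was given for 2 of the members, Krt82 and Krt84, which lie next to each other in the cluster; the first was lower in the transgenic pool and the second was not well above background. The 250 bases before each start are shown, from RefSeq's GRCm38.p6, 5′ to 3′ along the minus strand of the gene, because they share a stretch of letters, set in capitals.
Krt82, chr15:101550660-101550909: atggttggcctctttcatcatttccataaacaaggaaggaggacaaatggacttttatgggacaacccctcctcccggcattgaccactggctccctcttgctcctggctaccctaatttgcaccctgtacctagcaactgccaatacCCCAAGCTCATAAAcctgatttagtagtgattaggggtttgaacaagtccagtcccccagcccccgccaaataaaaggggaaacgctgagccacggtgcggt
Krt84, chr15:101532821-101533070: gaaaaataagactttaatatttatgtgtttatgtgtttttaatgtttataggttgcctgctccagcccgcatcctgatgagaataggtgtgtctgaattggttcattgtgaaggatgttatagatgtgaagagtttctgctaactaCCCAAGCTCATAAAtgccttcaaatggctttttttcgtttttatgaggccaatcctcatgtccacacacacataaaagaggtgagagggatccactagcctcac
The longest run common to both windows was CCCAAGCTCATAAA, 14 bases, which starts 102 bases before the start of Krt82 and 104 before that of Krt84. On either strand it occurred in 2 of 32851 windows of the same length, or 0.00609%, and these were the windows of Krt82 and Krt84. Its last 8 bases, CTCATAAA, occurred in 0.81% of windows (266). Of 9 hair keratin genes of both types with a window, 5 held it in any window. These were Krt82 and Krt84, from which the letters came, and Krt32, Krt33b and Krt39. None (0) of 12 other type II keratins with a window held it. The 32851 windows belong to 27025 genes, so counts of genes and shares of windows are unlike units. These letters were chosen because the windows share them, and a match is no binding site.

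Known motifs were searched on both strands in the same windows, with genes counted in the same way. TATAAA, the core of the TATA box, was in 12.4% of all windows. It was in 6 of the 9 hair keratin genes and in 4 of the 12 other type II keratins. Krt82 did not hold it, and the match in the Krt84 window was on the opposite strand, 206 bases before the start. CTTTGAA, a core read by LEF and TCF factors, was in 4.46% of windows and in 5 of the 9, all of them type I. Of the motifs searched, only CTCATAAA is contained in another, the 14-base run.

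Regulators of the hair matrix and of hair keratin genes were read from 18 listed genes. Of 15 measured, 6 were lower, 0 were higher and 9 passed in neither direction. Their median was -0.86. Msx2, a homeobox factor of the matrix, had a mean log2 ratio of -2.01, and Lef1 one of -1.65. Dlx3, another homeobox factor, had a mean of -1.95, with a dim transgenic channel and a bound of 3.16-fold lower on array 1. Hoxc13, a homeobox factor known to act on hair keratin promoters, had -1.13 and -2.24. The transgenic channel of array 1 was dim for it, with a bound of 1.28-fold lower. Foxn1, another known regulator of hair keratins, was not well above background.

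The 5 genes whose pair of log2 ratios lay nearest to the members' median pair (-3.20 on array 1 and -2.93 on array 2) were Krtap28-13, Krtap5-1, S100a3, Prr9 and Krtap4-16, by Euclidean distance over the 2 arrays. Their distances ran from 0.18 to 0.28 log2 units and their means from -3.22 to -2.91. Krtap genes encode keratin-associated proteins, which crosslink hair keratins, and S100a3 encodes a calcium-binding protein of the hair cuticle. A pair of values is a thin measure of likeness, and Krtap28-13 and Krtap4-16 had a dim transgenic channel on array 1.

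Markers of other cell types differed between the pools in both directions, and their part in the hair keratin result was not tested. Inner root sheath genes were lower in 7 of 8 measured cases, with a median of -2.26, Krt26 lying at -3.73 (dim in the transgenic channel, at least 6.51-fold lower on array 1) and Padi3 at -2.85. Pigment cell genes were lower in 6 of 8 (median -1.47) and dermal papilla genes in 2 of 4 (median -1.15). Of 15 cell division genes, 0 passed the rule, but 15 were below 0 on both arrays, with a median of -0.45, beside 3729 of all 10454 genes measured below 0 on both. Among outer root sheath genes 1 of 10 was lower (Krt75) and 1 higher (Krt14), with a median of 0.05, which turned to -0.43 when the arrays were centred on the spike-in RNAs. Epidermal markers were higher in 2 of 7 cases, with a median of 0.64, and fibroblast markers in 0 of 8, with a median of 0.39 that turned to -0.088 on the spike-ins. Sebaceous and adipocyte markers were higher in 7 of 7 and 7 of 8 (medians 2.08 and 1.37). Keratins of tongue papillae and nail, a list that holds Krt84, had 4 of 7 measured, of which 1 was lower, Krt36, and 1 higher, Krt16.

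The scale and the labels were checked. Centred on the 10 spike-in probes, the median of all genes moved from -0.0079 to -0.49, and the means of the 4 hair keratins lay between -2.62 and -4.16. The counts over all genes were then 159 higher and 451 lower, against 389 and 176 as deposited. The transgene's own probe, Pla2g2f, had log2 ratios of 0.54 and 0.34, which did not pass the rule, and its mean turned from 0.44 to -0.042 on the spike-ins. The labels do not say whether the transgene contains that probe's sequence. Markers of skin were present, with Krt5, Krt14 and Col1a1 well above background in both channels.

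**Figure D5:**
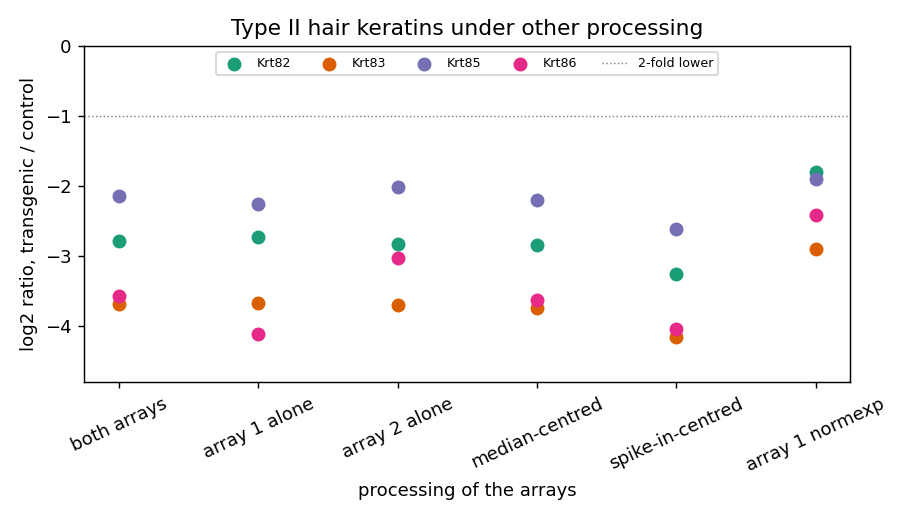
Log2 ratios of the 4 measured genes under 6 ways of processing the arrays, as the mean of the arrays unless 1 array is used alone. The normexp points average array 1 with normexp and array 2 as deposited. All points lie below the dotted 2-fold line, from -1.79 for Krt82 with array 1 normexp to -4.16 for Krt83 centred on the spike-ins, although array 1 by itself put Krt82 at -0.76 under normexp.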

How the data were processed

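The deposited scanner output of array 1 gives an intensity for each spot in Cy3 and Cy5. Its program, Agilent Feature Extraction 9.5.1.1 per the submitters' processing notes, subtracted background, detrended, normalised the dyes and replaced dim values by surrogates, which compress ratios near background, per the file headers. The deposited value table has 1 log10 column per array. Column 1 matched log10 of Cy5 over Cy3 at 43790 features within 1e-05. The scale and direction of column 2 were settled from the data: their Pearson correlation was -0.579 across 41534 non-control features and 1.00 across 10 spike-in probes, which follow the dye. The column medians were 0.0145 and -0.0243 (log10), so neither was centred. For array 2 the value table alone was used, so its dim or saturated spots are unknown. Array 1 had 0 saturated non-control spots.

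Columns were converted to log2, array 2 was turned, and the arrays were averaged (Python 3.11.15, numpy 2.4.6, pandas 2.3.3). Control spots and 29 outlier spots were left out. Probes well above background in neither channel of array 1 were left out, and the brightest stood for a gene. Names came from a RefSeq table for 24370 probes by accession, 6300 by symbol and 2425 by synonym, and the array's own name was used for 8072. Genes were called at 2-fold the same way on each array. A bound ("at least") sets a dim channel to the higher of its own signal and the lowest signal well above background. It uses array 1 only, where dye bias is not balanced, so it is not strict. For 10 probes with 10 spots each, the median SD of the log2 ratio was 0.09 (array 1) and 0.10 (array 2). Having 2 arrays limits the precision. Normexp used limma 3.58.1 and was applied to array 1 only, so means with normexp keep array 2 as deposited. The size rule was tested on simulated data.

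The genes named are all members, Pla2g2f, all type I hair keratins, up to 4 genes with the largest differences from each list, and the nearest 5 genes. Other keratins of the cluster, Hoxc13's bound, Foxn1 and the skin markers were named after their values were seen. The members and lists were chosen with earlier results of these data known.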

Additional observations from a re-analysis of the deposited data

How the results depend on the processing

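The 20 values of the 4 measured hair keratins that an alternative changed (1 array left out, another centring or normexp) stayed below 0, from -4.16 to -1.79. With normexp on array 1 the mean over the members was -2.25, the median -2.15, and 3 members were called lower, with 56 genes lower and 107 higher in all. The cause was not tested. Centring on the spike-ins gave a mean of -3.52, a median of -3.65, and 451 lower and 159 higher genes. Without the filter on dim probes Krt84 entered at 0.19, and the mean and median were -2.39 and -2.78. Requiring both channels above background left 2 members called lower, a median of -2.91, and 86 lower and 243 higher genes. Calling at 1.5-fold gave 397 lower and 864 higher genes, and calling at 3-fold 95 and 140. With the Krt83 probe left out as Krt87, an alternative chosen after seeing the data, the mean was -2.83 and the median -2.78. With 1 array left out, the median ranged from -3.20 to -2.93, the mean from -3.19 to -2.89, the lower genes from 259 to 274 and the higher genes from 520 to 568. Zone medians under all alternatives were also added after seeing the data. The ratio on each array already pairs the pools, but no paired test was run because the arrays were counted as 1 replicate. Signal near background on array 1 limits the sizes of Krt82 and Krt86 and hides Krt84.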
